A study of Homo sapiens with 4 samples.

Results

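XIAP, BIRC2, BIRC3 and BIRC6 encode inhibitor of apoptosis proteins (IAPs), DIABLO encodes their mitochondrial antagonist Smac, CFLAR encodes the caspase-8 brake c-FLIP, and CASP8 and CASP9 encode the initiator caspases of the death receptor and mitochondrial pathways. These 8 genes were chosen by symbol, and all 8 were found, with 29 transcripts, among the 15113 gene symbols and 43596 transcripts of the table. The cells were MDA-MB-231, an established line of human triple-negative breast cancer, and the libraries were mRNA libraries of cells that received either DMSO, the solvent, or 10 µM KH-3, an inhibitor of the RNA-binding protein HuR, for 24 h. Each condition had 2 libraries, which the methods call biological replicates, and no group carried a genetic change made for the study. The table gives 1 mean normalized read count per transcript, in which the authors averaged libraries after normalization. Which libraries enter that mean is not given in the sources used here, and the methods also name a lower KH-3 dose that is not used here, so every level below is a level of the experiment as a whole and not of DMSO or of KH-3. The change between KH-3 and DMSO was not analysed here, because the values for it are the authors' own comparison and no value per library was at hand. Library depth and the spread between replicates are therefore unknown, and no level below carries an error or a test. In bulk RNA, fewer cells with a transcript and less of it per cell cannot be told apart.

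Apoptosis ends in a cascade of cysteine proteases. Initiator caspases are activated on platforms, caspase-8 at death receptors with FADD and caspase-9 on the Apaf-1 apoptosome after release of cytochrome c, and they cleave the executioner caspases. IAPs carry zinc-binding BIR domains. XIAP blocks caspases directly, while the BIRC2 and BIRC3 products (cIAP1 and cIAP2) are ubiquitin ligases of the TNF receptor complex, and the very large BIRC6 product is a ubiquitin-conjugating enzyme. Smac binds BIR domains and frees caspases from them. HuR binds AU-rich stretches of mRNA, mostly in 3′UTRs, and XIAP mRNA is among its known targets, which is why the 3′UTRs of these genes were also examined.

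Counts were divided by transcript length in kb before genes were compared, and the transcripts of a gene were added up. On this scale the 8 genes lay close to the middle of the table. Their levels ran from 60.0 to 238 with a median of 143 per kb, against a median of 108 and quartiles of 27.4 and 316 for all 15113 genes. The median percentile of the 8 genes was 56.1, and 6 of them were above the median of all genes. Against the 12120 genes with a listed protein-coding transcript, whose median was 157 per kb, 4 of the 8 were above the median, namely BIRC2, DIABLO, BIRC6 and CASP8. The order from high to low was BIRC2, DIABLO, BIRC6, CASP8, XIAP, BIRC3, CFLAR and CASP9. Since no spread is known, it cannot be said which neighbours in this order differ. BIRC2 was also first on each of the 4 other scales per kb that were tried. CASP9 was last on 3 of them and ahead of XIAP and CFLAR with the leading transcript alone. The places between BIRC2 and CASP9 changed from scale to scale. Without division by length BIRC6 had the highest percentile of the 8, 91.8, with XIAP at 77.5, BIRC2 at 74.6 and CASP9 at 34.3.

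**Figure D1:**
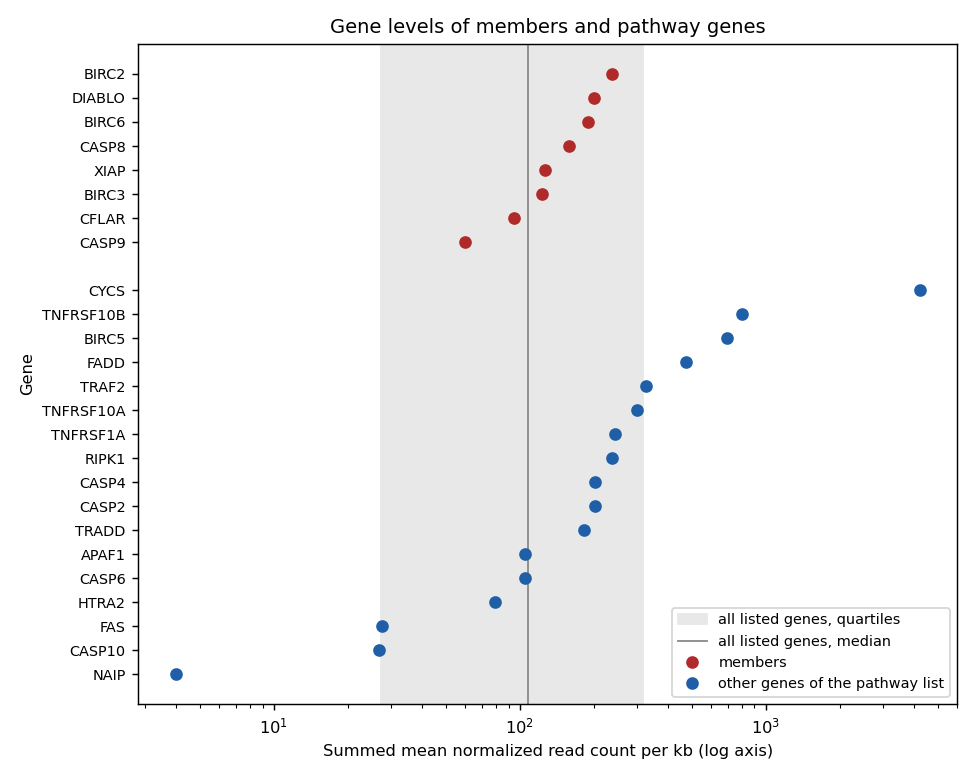
Level of each gene, as the summed mean normalized read count per kb of transcript on a log axis, for the 8 members (red) and the 17 listed genes of the wider pathway list (blue). Grey shading spans the quartiles of all listed genes and the line marks their median. The 8 members sit between 60.0 and 238, inside the shading, while the other genes reach from 3.98 for NAIP to 4249 for CYCS.

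Among the IAPs, BIRC2 (chr11:102347211-102378670, plus strand, hg38) had the highest level, 238 per kb at percentile 68.5. Its neighbour BIRC3 (chr11:102317484-102339403, plus strand), which ends 7807 bases before BIRC2 starts, had 124 per kb at percentile 53.0. The level of BIRC2 was thus 1.92 times that of BIRC3, and 1.68 to 1.84 times with coding transcripts only, the leading transcripts or the longest length. Both genes were carried by a single transcript. BIRC2-001, of 3743 bases, held 93.3% of the counts of its gene with a mean normalized read count of 777, although all its bases also lie in other listed BIRC2 transcripts, so that the estimate had to divide shared reads. BIRC3-002, of 5197 bases, held 92.8% with 587. The other 3 BIRC2 transcripts had 14.0 to 21.7 normalized reads and the other 2 BIRC3 transcripts 16.1 and 29.4. The median share of a leading transcript was 65.6% over the 9608 genes with at least 2 transcripts, 1 of them coding, so these 2 genes were above the upper quartile of 83.0%.

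XIAP (chrX:123859712-123913972, plus strand), the IAP that blocks caspases directly, had a level of 127 per kb at percentile 53.4, close to that of BIRC3. Its counts were split over 3 coding transcripts of almost the same length. XIAP-201, of 8415 bases, had a mean normalized read count of 392. XIAP-002, of 8591 bases, had 302. XIAP-009, of 8584 bases, had 239. They held 41.6%, 32.0% and 25.3% of the gene's counts. XIAP-002 and XIAP-009 encode the same 497 residues and share 8332 bases. Of their bases, 226 and 252, respectively, lie in no other listed XIAP transcript that was found in the reference annotation. Unlisted transcripts of that annotation were not compared. XIAP-201 was not found there. The bases that set XIAP-201 apart are therefore unknown here. The fourth XIAP transcript, XIAP-006, is a non-coding fragment of 628 bases with 10.8 normalized reads.

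BIRC6 (chr2:32357023-32619571, plus strand) had the largest read count of the 8 genes, 2106 in sum, on the longest transcript, BIRC6-001, with 15703 bases and 74 exons for 4857 residues. Per kb its level was 190 at percentile 63.2, or 1.5 times that of XIAP. The ratio was 2.44 by the leading transcripts, 1.22 by the longest length and 1.04 with coding transcripts only, where the 2 genes were nearly level. BIRC6-001 had a mean normalized read count of 1783, which is 114 per kb. BIRC6-002, annotated as a retained intron, had 323, or 76.5 per kb. It lacks the first 57 of the 74 exons and shares 3923 of its 4226 bases with the end of BIRC6-001, so only 303 bases set it apart. With coding transcripts alone BIRC6 had 114 per kb, and XIAP had 109.6.

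DIABLO (chr12:122207663-122227456, minus strand) had a level of 200 per kb at percentile 64.4. This place rested on 1 short transcript. DIABLO-008, of 573 bases, had a mean normalized read count of 87.0, which is 152 per kb and 54.5% of the gene's counts. Its coding part is annotated as incomplete, and 518 of its bases also lie in DIABLO-005. The 5-exon and 6-exon forms with complete coding sequences were low. DIABLO-005, which encodes the full Smac precursor of 239 residues, had 32.5 normalized reads or 12.6 per kb. That value uses the listed length of 2569 bases, while the reference annotation gives DIABLO-005 a length of 1471. DIABLO-002, which lacks exon 3 of that form and encodes 195 residues, had 14.9 normalized reads or 11.0 per kb. DIABLO-003, which lacks exon 2 and encodes 166 residues, had 13.9 normalized reads or 6.16 per kb. When the summed count of 160 was divided by the longest listed length instead, these 2569 bases of DIABLO-005, the level of DIABLO was 62.1 per kb. The ratio of XIAP to DIABLO was accordingly 0.635 by the sum over transcripts, 0.549 with coding transcripts only, 0.307 by the leading transcripts and 1.77 by the longest length, and the order of the antagonist and its target depended on the length used.

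**Figure D2:**
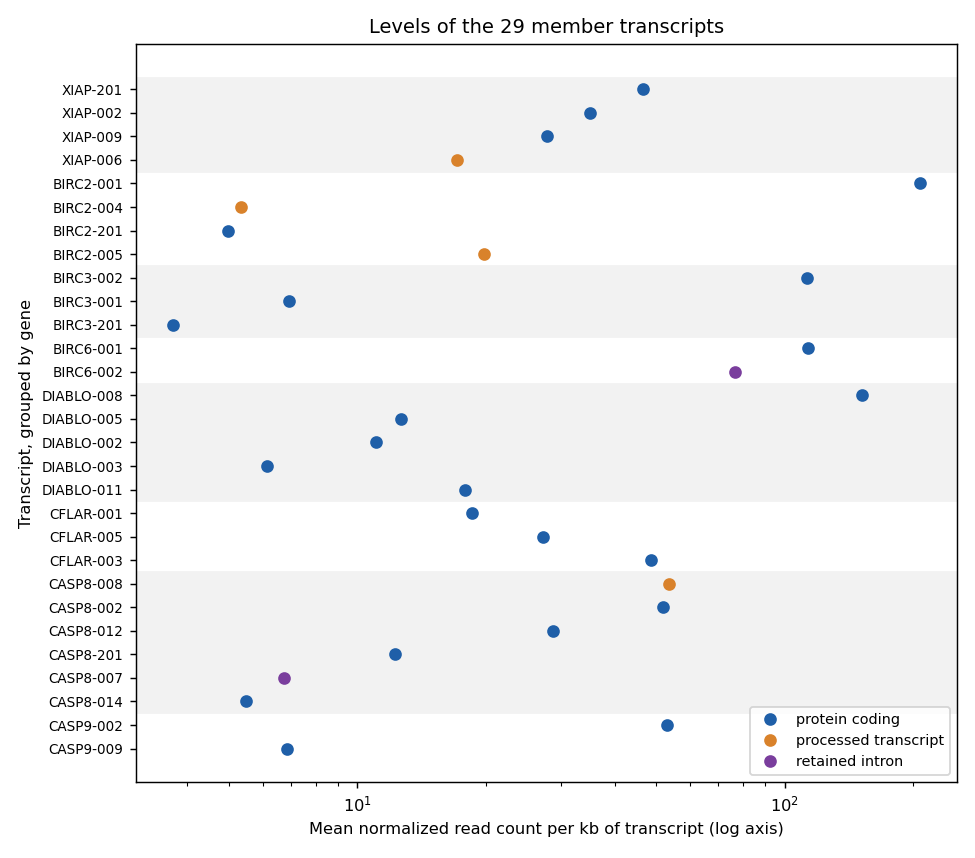
Each point is 1 of the 29 transcripts of the 8 genes, at its mean normalized read count per kb on a log axis, coloured by the type given in the table. BIRC2-001, BIRC3-002 and DIABLO-008 stand well apart from the other transcripts of their genes, while the 3 coding XIAP transcripts lie together between 27.8 and 46.6.

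CASP8 and CFLAR lie in 1 cluster on chromosome 2, with CFLAR (chr2:201116154-201176687, plus strand) ending 56755 bases before CASP8 (chr2:201233443-201361836, plus strand). CASP8 had a level of 159 per kb at percentile 58.8, and CFLAR had 94.4 at percentile 47.1. Both values depended on the transcripts and lengths used. CASP8 had 98.3 per kb with coding transcripts only, and CFLAR had 31.0 by the longest length and 18.5 by its leading transcript. The ratio of CASP8 to CFLAR was 1.68 by the sum over transcripts but 1.04 with coding transcripts only, where the 2 genes were nearly level. It was 4.80 by the longest length and 2.89 by the leading transcripts, of which that of CASP8 is non-coding. c-FLIP resembles caspase-8 without a working active site and competes with it at the receptor complex.

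The CASP8 transcript with the largest count was not a coding one, but the coding CASP8-002 came close. Since no spread is known, it cannot be said that their counts differ. CASP8-008, a processed transcript of 2911 bases that the newer annotation calls a retained intron, had a mean normalized read count of 156 and held 35.8% of the counts. It has 2724 bases that lie in no other listed CASP8 transcript that was found in the reference annotation. CASP8-201 was not found there, and unlisted transcripts of that annotation were not compared. CASP8-002, the form with 538 residues, had 152. CASP8-012, with 464 residues, had 75.9. CASP8-201 had 31.1, CASP8-014, with 479 residues, had 8.92, and CASP8-007 had 11.6. The reference transcript of CASP8, which encodes 479 residues, was not listed. Together 38.5% of the CASP8 counts lay in transcripts of non-coding types, against a median of 5.35% and an upper quartile of 25.5% over the 9608 genes. CASP8 was the member with the largest such share, followed by BIRC6 with 15.4%. In BIRC3, DIABLO, CFLAR and CASP9 all listed transcripts were coding.

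For CFLAR the scale decided which form led. CFLAR-001, with 14672 bases the long form that encodes all 480 residues (c-FLIP long), had a mean normalized read count of 272 and 59.9% of the counts. Per kb it was the lowest of the 3, with 18.5. CFLAR-003, of 1283 bases, encodes the 221 residues of the short form (c-FLIP short) and had 62.4 normalized reads but 48.7 per kb. CFLAR-005, which encodes 250 residues, had 120 normalized reads or 27.2 per kb. CFLAR-003 lacks exons 6 to 10 of the long form and CFLAR-005 lacks exons 5 to 10. The short form is known to keep the death effector domains that bind the receptor complex and to lack the part that resembles a caspase. Most of the length of CFLAR-001 is its 3′UTR of 12714 bases, against 165 bases in CFLAR-003 and 3450 in CFLAR-005.

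CASP9 (chr1:15490832-15526534, minus strand) was the lowest of the 8, with a summed count of 117 and 60.0 per kb at percentile 38.3. By the longest length its level was 26.2 per kb. The reference transcript of the gene, with 9 exons and 416 residues, has no row of its own in the table as used here. Of the 2 listed forms, CASP9-002 had a mean normalized read count of 86.2, or 53.2 per kb, and 73.8% of the counts of these 2. Whether unlisted forms, the reference transcript among them, had reads is unknown. The value is therefore not a share of all CASP9 mRNA. CASP9-002 lacks exons 3 to 6 of the reference transcript, 450 bases in all, and encodes 266 residues. This is the short form of caspase-9, which lacks most of the large catalytic subunit and is known to oppose the full enzyme. CASP9-009, of 4463 bases, holds all 2808 bases of the reference transcript, keeps the last intron between exons 8 and 9, and encodes 421 residues. It had 30.5 normalized reads, or 6.84 per kb. The junction from exon 2 to exon 7 is found in the short form and in neither of the longer ones, and is shown here because reads across it separate the short form from both. The first 15 bases, in lower case, are the end of exon 2 and the 15 in capitals the start of the next exon (5′ to 3′ in the mRNA, as DNA, GENCODE release 44 on hg38, minus strand).
CASP9-002, exon 2 to the exon that is 7 in the reference: gatttggtgatgtcgAGCAGAAAGACCATG
full-length CASP9, exon 2 to exon 3: gatttggtgatgtcgGTGCTCTTGAGAGTT
full-length CASP9, exon 6 to exon 7: aggcctgtggtggggAGCAGAAAGACCATG
Exon 2 spans chr1:15518110-15518395, exon 3 chr1:15507873-15507907, exon 6 chr1:15504611-15504758 and exon 7 chr1:15495273-15495452. All 1621 bases of the short form also lie in CASP9-009. The division of reads between the 2 listed forms thus depends on this junction, on the junction of exons 8 and 9, and on the bases of CASP9-009 outside the short form.

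**Figure D3:**
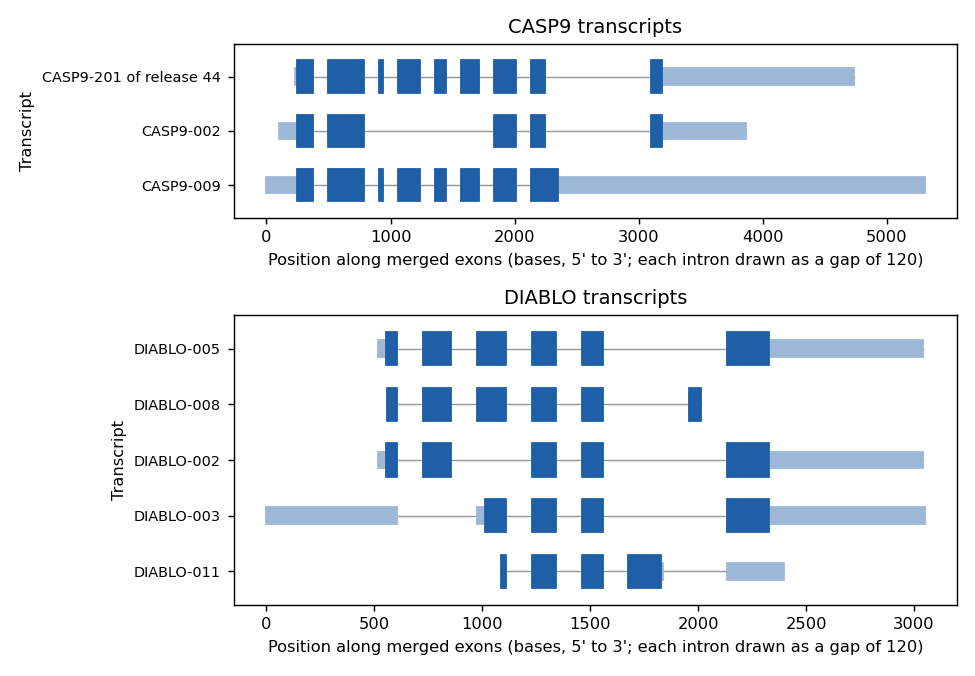
Exons of the CASP9 transcripts (top) and DIABLO transcripts (bottom) along their merged exons, 5′ to 3′, with introns drawn as gaps of fixed size. Dark blocks are coding and light blocks untranslated. CASP9-002 has a gap where the reference transcript has exons 3 to 6, and DIABLO-008 ends in a short exon of its own with no untranslated part.

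The wider pathway list held 24 further genes, of which 17 were in the table, with a median level of 203 per kb, and 11 of them above the median of all genes. BIRC5 (survivin), the IAP of dividing cells, had 694 per kb at percentile 88.3, which is 2.92 times the level of BIRC2, and 1.69 times by the leading transcripts and 2.60 times by the longest length. NAIP, an IAP of the inflammasome, had 3.98, and BIRC7 and BIRC8 had no row. HTRA2, a second mitochondrial IAP antagonist, had 79.0 per kb, and XAF1 and SEPT4 had no row. CASP6 had 105 per kb, CASP2 202, CASP4 203 and CASP10, the second death receptor caspase, 26.9. CASP1, CASP5 and CASP14 had no row. CYCS, which encodes cytochrome c, had 4249 per kb at percentile 99.0, while its apoptosome partner APAF1 had 105. By the longest length CYCS had 1444, APAF1 48.3 and CASP4 70.3 per kb.

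All 8 genes of the death receptor complexes were listed, and 7 of them were above the median of all genes, with a median of 271 per kb. TNFRSF10B (TRAIL receptor DR5) had 804 per kb at percentile 90.1, TNFRSF10A (DR4) had 299, and TNFRSF1A (TNF receptor) had 244. The adaptor FADD had 473, TRAF2, which recruits the BIRC2 and BIRC3 products, had 325, RIPK1 had 236 and TRADD had 182. FAS was the exception with 27.6 per kb at percentile 25.1. All 5 mesenchymal markers of the line were listed, with VIM, AXL, MSN, CAV1 and CD44 at 427 to 10135 per kb and percentiles of 80.8 to 99.7. Of 6 luminal markers, ESR1, PGR and CDH1 had no row and GATA3, FOXA1 and ERBB3 had 29.5 to 39.5 per kb.

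AUUUA pentamers, the core of the AU-rich elements to which HuR and mRNA decay factors bind, were counted in the 3′UTR of the coding transcript with the largest count that the reference held in full, which for XIAP was XIAP-002, for DIABLO DIABLO-005 and for CASP8 CASP8-002. Over 11904 genes with such a 3′UTR the median length was 1254 bases, 72.7% had at least 1 AUUUA and 56.5% at least 2, and the median was 1.74 per kb. Of the 8 members, 7 had at least 2 and CASP9 had 0 in the 673 bases of CASP9-002, where 61.6% of the 1184 genes within 20% of that length had at least 1. A pentamer match is a description of the sequence and not evidence of binding. The 3′UTR of CASP9-009, of 2952 bases, was not counted. The last exon of CASP9-002 has 766 bases, and that of the CASP9 reference transcript starts at the same base and has 1635. The part of the 3′UTR beyond the end of CASP9-002 was thus not counted either. Matches were counted on the mRNA strand and may overlap.

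XIAP had 20 pentamers in 6791 bases, or 2.95 per kb at percentile 70.3, where 468 genes of like length had a median of 15.5. BIRC3 had 12 in 2301 bases, or 5.22 per kb, against a median of 5 over 1638 genes of like length. BIRC2 had 3 in 487 bases against a median of 1, and BIRC6 had 6 in 974 bases against 2. The densities of these last 2 were equal, 6.16 per kb at percentile 94.7. CASP8 had 3 in 1117 bases against a median of 2 over genes of like length, and DIABLO 2 in 713 against 1. CFLAR had 23 in 12714, below the median of 28 over 84 genes of like length. The longer UAUUUAU, which contains AUUUA, occurred 3 times in BIRC3, 2 times in CFLAR and 1 time in XIAP. It was not found in the others, while 35.1% of all 3′UTRs held it. That share was not matched for length, and BIRC3, CFLAR and XIAP had the longest 3′UTRs of the members. The 3 IAP genes BIRC2, BIRC3 and BIRC6 were thus at or above percentile 91.5 of AUUUA density, and XIAP was not. The AU content was 68.8% in BIRC2 and BIRC6, 63.2% in BIRC3 and 62.4% in XIAP, against a median of 58.3% over all 3′UTRs. How far AU content accounts for the densities was not tested.

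The densest stretches are shown for the 4 IAP genes and CFLAR, as the 30 bases of the 3′UTR around the largest group of pentamers, to show what such a cluster looks like in each gene. Each is written as DNA, 5′ to 3′ on the plus strand of hg38, with ATTTA in capitals.
XIAP, chrX:123909003-123909032: ATTTAaaacattgcaaATTTAttttATTTA
BIRC3, chr11:102338412-102338441: aacaaATTTATTTAatcacagATTTAcatc
BIRC2, chr11:102378349-102378378: tatATTTAatcttaatctgtttATTTAcaa
BIRC6, chr2:32618503-32618532: atgaATTTAttacattcaacatATTTAatt
CFLAR, chr2:201167056-201167085: aatattttatgATTTATTTAtttttctatt
The windows held 3 of the 20 pentamers of XIAP, 3 of 12 in BIRC3, 2 of 3 in BIRC2, 2 of 6 in BIRC6 and 2 of 23 in CFLAR, and in BIRC3 and CFLAR a pair of them overlaps by 1 base.

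**Figure D4:**
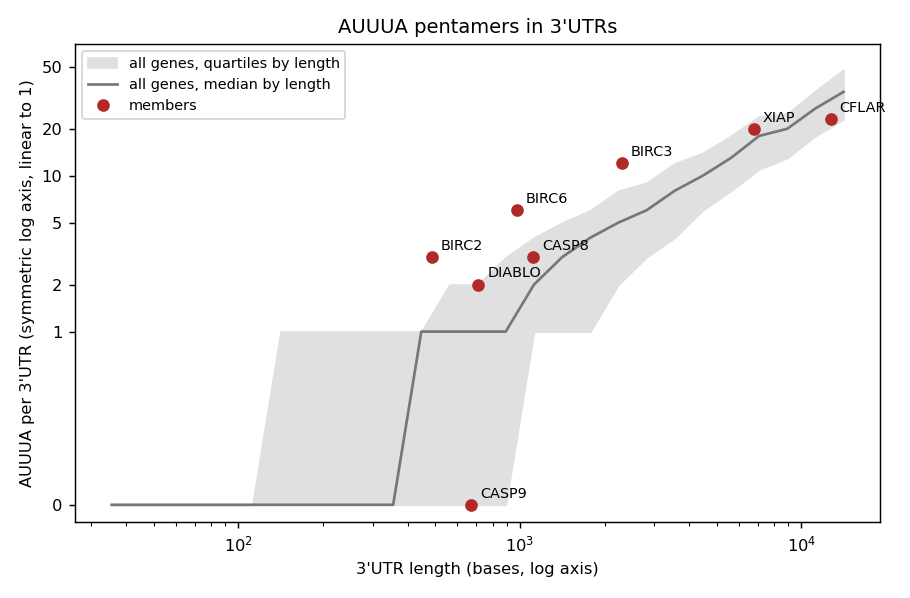
Number of AUUUA pentamers in the 3′UTR (symmetric log axis, linear up to 1) against its length (log axis). Grey shows the median and quartiles of all genes in bins of length with at least 20 genes, and red points are the 8 members. BIRC2, BIRC3 and BIRC6 lie above the shading, with 3, 12 and 6 pentamers, and CASP9 lies at 0.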

How the data were processed

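Per the file header and the methods, the authors deposited for each transcript a mean normalized read count, a signal averaged over libraries. They had mapped reads with STAR to GENCODE release 24 (hg38), estimated counts per transcript with eXpress and normalized with DESeq2, whose versions are not given in the sources used here. The other 3 numeric columns hold the authors' comparison of KH-3 with DMSO (fold change, p-value and q-value) and were not used. Values per library were not at hand, so depth, replicate spread and a test between conditions could not be had, and precision is unknown.

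Each mean was divided by the transcript length in the table (kb) and summed over the transcripts of a gene symbol. Shares of counts are over the listed transcripts of a gene only. Percentiles are over all 15113 symbols. The arithmetic of the sums was checked on simulated counts without noise, which says nothing about how well the levels were estimated. All 8 members were named, with the pathway and marker lists, which were chosen with earlier results of these data known. Some items of the planned pathway list are not reported here. By ID without version, 26 of the 29 member transcripts were found in GENCODE release 44 (hg38), 16 of them with the same length. Exons, residues and 3′UTRs come from that release, lengths per kb from the table. BIRC3-002, DIABLO-005 and XIAP-002 are among those whose length differs between the releases. The alternatives changed the transcripts summed, the length, the count minimum and the background. Python 3.11.15, numpy 2.4.6, pandas 2.3.3 and matplotlib 3.10.9 were used.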

Additional observations from a re-analysis of the deposited data

How the results depend on the processing

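The median level of the 8 genes was 143 per kb. It was 112 with protein-coding transcripts only, 83.3 with the leading transcript alone, 124 with a mean normalized read count of at least 50, and 116 with the length of the longest listed transcript. Over these 4 alternatives the level of a gene moved by more than 1.5 times in 2, 4, 0 and 3 of the 8 genes. BIRC2 stayed first under all 4, and CASP9 was last in all but the leading transcript alone. The median percentile went from 56.1 to 64.3 with no division by length and to 47.3 with genes that have a protein-coding transcript as background, where 4 rather than 6 of the 8 were above the median, so the place of the 8 genes just above or below the middle depends on the background. The median share of the leading transcript was 66.9% of counts and 67.9% of the value per length. No paired analysis was possible because the table has 1 mean per transcript and no column per library. For the same reason no library could be left out, and the fit of KH-3 against DMSO planned for values per library was not run. Low transcripts of these genes are limited by the lowest value in the table, 7.34.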
